A study of Mus musculus with 34 samples.

Results

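The epithelial sodium channel (ENaC) and the genes through which aldosterone controls it were examined in kidneys of polycystic mice. The 9 genes were chosen by name for their place in this pathway. They comprised the channel subunit genes *Scnn1a*, *Scnn1b* and *Scnn1g*, the receptor genes *Nr3c2* and *Nr3c1*, the enzyme gene *Hsd11b2*, and the regulator genes *Sgk1*, *Nedd4l* and *Tsc22d3*. All 9 were found among the 23509 genes of the deposited tables, and all 9 had enough counts to be among the 15644 genes tested.

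Kidney mRNA was profiled by RNA-seq in 34 mice of the C57BL6 strain, harvested at postnatal day (P) 28. *Pkd2*-KO mice received subcutaneous (SC) doses of either RGLS4326 at 20 mg per kg (n = 11) or PBS (n = 11) on P10, P11, P12 and P19. Untreated non-transgenic (UNT) mice (n = 12) were of wild-type genotype and were not injected. RGLS4326 is a short, chemically modified oligonucleotide that inhibits the microRNA miR-17 by pairing with its seed region.

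Both *Pkd2*-KO groups carried floxed *Pkd2* alleles and a Cre recombinase driven by the *Pkhd1* promoter. Cells in which that promoter was never active therefore keep the gene. The labels spell this genotype as Pdk2KO. PBS vs UNT, here called the disease contrast, differs in genotype and in the injections, and these cannot be told apart. RGLS4326 vs PBS, the treatment contrast, compares mice of the same genotype and schedule, and a group given a control oligonucleotide was not analysed here.

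ENaC is the channel through which sodium enters the principal cells of the connecting tubule and collecting duct from the urine, and it is built from an alpha, a beta and a gamma subunit. Aldosterone binds the mineralocorticoid receptor in these cells, and the receptor then raises transcription of *Sgk1*, a kinase that phosphorylates the ubiquitin ligase Nedd4-2 and so keeps the channel at the cell surface. Cortisol or corticosterone would occupy the same receptor, and the enzyme 11-beta-hydroxysteroid dehydrogenase type 2 inactivates them in principal cells. In polycystic kidney disease, cysts that arise from the collecting duct are lined by epithelial cells in which the balance of sodium absorption and fluid secretion has long been studied.

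Several sequences are relevant to what was measured. The mature miR-17 strand that RGLS4326 is directed against is shown with its seed, bases 2 to 8, in capitals, because a match to this seed in a 3′UTR is the site through which miR-17 represses an mRNA. It lies at chr14:115043684-115043706 on the plus strand (RefSeq, GRCm38.p6).
mmu-miR-17-5p: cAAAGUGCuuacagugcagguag
A match was counted where a 3′UTR held the complement of bases 2 to 8, the complement of bases 2 to 7 followed by an A, or both together (the 8-base match). Among the 9 genes, only *Nedd4l* held such matches in its longest annotated 3′UTR (GENCODE M21), 1 of each of these 3 kinds in 4942 bases, so 2 of the 3 matched the whole seed. The other 8 genes held 0 matches in 3′UTRs of 453 to 3937 bases. Of the 14193 tested genes with an annotated 3′UTR, 21.2% held at least 1 match, and the median length of those 3′UTRs was 1149 bases.

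The mineralocorticoid and glucocorticoid receptors bind the same DNA element, an inverted repeat of the 6-base motif AGAACA with a spacer of 3 bases. RefSeq start regions, from 250 bases before to 50 bases after the start (GRCm38.p6), were searched for AGAACA and its reverse complement TGTTCT, without counting overlaps with other motifs. They are shown for the *Sgk1* region that had the full inverted repeat, and for *Scnn1b* and *Scnn1g*, neighbouring channel genes, with the motif in capitals. The *Sgk1* region is chr10:21993640-21993939, the *Scnn1b* region chr7:121864788-121865087 and the *Scnn1g* region chr7:121734229-121734528, each on the plus strand.
Sgk1: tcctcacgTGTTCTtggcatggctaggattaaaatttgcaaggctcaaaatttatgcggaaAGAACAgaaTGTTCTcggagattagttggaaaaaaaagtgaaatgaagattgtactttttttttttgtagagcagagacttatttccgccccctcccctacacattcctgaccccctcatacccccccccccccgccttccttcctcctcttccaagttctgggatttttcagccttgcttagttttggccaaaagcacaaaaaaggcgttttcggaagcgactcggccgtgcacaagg
Scnn1b: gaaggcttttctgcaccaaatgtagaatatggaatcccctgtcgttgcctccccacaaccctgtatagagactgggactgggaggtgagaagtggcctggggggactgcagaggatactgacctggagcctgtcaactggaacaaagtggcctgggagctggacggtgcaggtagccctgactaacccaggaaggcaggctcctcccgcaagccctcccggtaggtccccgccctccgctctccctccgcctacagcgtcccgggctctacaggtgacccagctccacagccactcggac
Scnn1g: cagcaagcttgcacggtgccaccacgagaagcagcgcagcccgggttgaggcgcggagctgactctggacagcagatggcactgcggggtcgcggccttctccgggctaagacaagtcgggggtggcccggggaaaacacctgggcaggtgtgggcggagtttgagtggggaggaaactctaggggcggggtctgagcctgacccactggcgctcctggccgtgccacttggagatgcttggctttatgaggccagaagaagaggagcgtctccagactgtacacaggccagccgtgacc
The *Sgk1* region shown held 3 of the 6-base motifs, and the full inverted repeat spanned positions −189 to −175 relative to its start. The inverted repeat with this spacer was found in 3 of 32851 RefSeq start regions (0.0091%), those of *Sgk1*, *Acnat2* and *Gm35041*, whereas 19.0% of the regions held at least 1 of the 6-base motifs. The *Scnn1b* and *Scnn1g* regions held none of these letters. Start regions were examined for 5 of the 9 genes, *Sgk1*, *Scnn1b*, *Scnn1g*, *Nr3c2* and *Tsc22d3*, and *Sgk1* alone had 6 of their 12 regions. The other *Sgk1* regions, and those of *Nr3c2* and *Tsc22d3*, held 0 inverted repeats and either 0 or 1 of the 6-base motifs each.

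Reads assigned to genes numbered between 17603122 and 54981992 per library, and no member had fewer than 314 counts in any library. The targeted gene *Pkd2* had a mean level of 274 ± 34.4 (SD) CPM, its reads scaled to a TMM-adjusted library size, in the UNT, 160 ± 32.2 in the PBS and 210 ± 23.8 in the RGLS4326 group, and every PBS mouse was below every UNT mouse. The share of reads that fell in no gene, among all reads the counter listed, was 9.84% to 11.3% in UNT libraries, 5.18% to 9.0% in PBS libraries and 4.94% to 12.0% in RGLS4326 libraries, so UNT and PBS did not overlap in it. Reads with no unique alignment made up, by the same total, 22.8% to 25.7% of UNT libraries, 14.8% to 19.4% of PBS libraries and 14.8% to 19.1% of RGLS4326 libraries, so UNT overlapped with neither other group, and the part of this difference in the contrasts with UNT was not tested. PBS mouse 9 stood apart from its group. Its mean correlation with the other PBS mice was 0.972, whereas the next lowest library of the 34 had 0.983. Disease fold changes of *Hsd11b2*, *Nr3c2*, *Nr3c1* and *Nedd4l* are given with and without it. Correlations among PBS mice were not repeated without it alone. The library numbers in the deposited names restart and so form 3 numbering sets, each with 3 or 4 mice of every group.

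CPM are used as levels throughout, and fold changes are on the log2 scale with their standard error. The test was edgeR's two-sided quasi-likelihood test, its p-values were adjusted over all 15644 genes after Benjamini and Hochberg, and genes with an adjusted p under 0.05 are called higher or lower. In whole kidney tissue, fewer cells of a type and less RNA per cell cannot be told apart.

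In the disease contrast, the channel subunit genes and *Hsd11b2* rose, *Sgk1* and *Nr3c1* fell, and *Nr3c2*, *Nedd4l* and *Tsc22d3* did not pass the test. These were 4 genes higher and 2 lower of 9, against 43.1% of all tested genes called higher and 39% called lower (82.1% in all), so a call by itself was common here. The groups did not overlap for 4 of the 9 genes, all of them higher, against 42.5% of all genes. In the treatment contrast 1 of the 9 genes, *Nr3c1*, was higher and 3 genes, *Scnn1a*, *Scnn1b* and *Hsd11b2*, were lower, against 15.3% and 18.5% of all genes (33.8% in all). None of these 4 treatment calls held once the fraction of reads outside genes entered the fit, as given after the single genes. No member was without overlap between the RGLS4326 and PBS groups, against 0.0639% of all genes. The RGLS4326 vs UNT contrast called 4 genes higher and 2 lower, with 0 of 9 free of overlap, where 77.7% of all genes were called, 40.8% higher and 36.9% lower, and 36.7% did not overlap. Each contrast shares a group with the others, so their fold changes are not independent of each other.

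**Figure D1:**
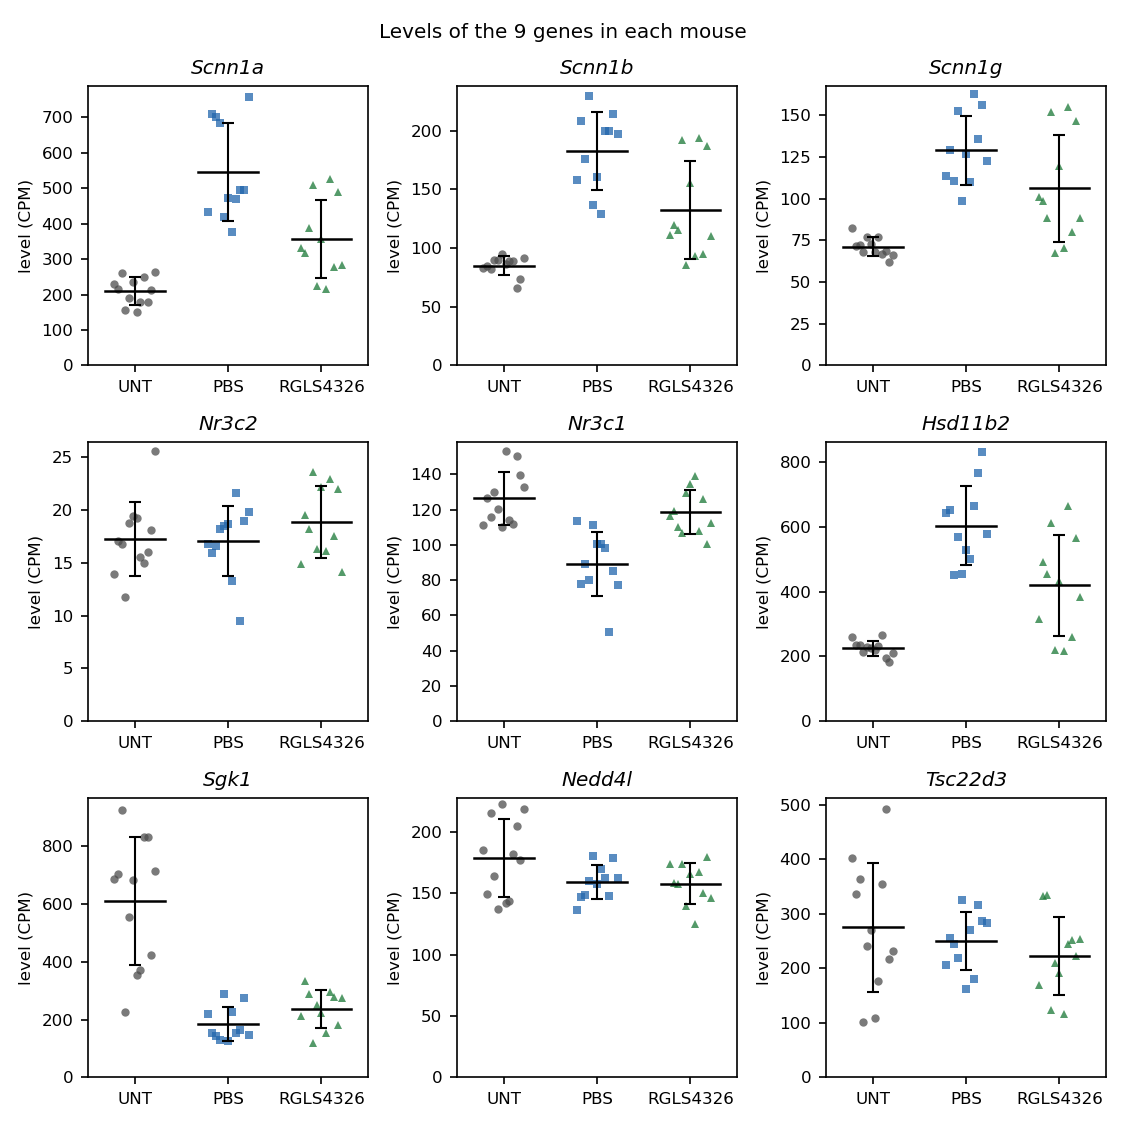
Level of each of the 9 genes in CPM (y axes, from 0) in each UNT, PBS and RGLS4326 mouse (points), with the group mean (line) and SD (error bar). All 11 PBS mice lie above all 12 UNT mice for *Scnn1a*, *Scnn1b*, *Scnn1g* and *Hsd11b2*, and the *Sgk1* points of the PBS and RGLS4326 mice lie in the lower part of the UNT range or below it.

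*Scnn1a* encodes the alpha subunit of ENaC and lies at chr6:125320659-125344943 on the plus strand (GRCm38, GENCODE M21, as for the other genes). It ranged from 152 to 265 CPM in UNT mice (median 213), from 376 to 758 in PBS mice (median 494) and from 216 to 526 in RGLS4326 mice (median 332). Every PBS mouse was above every UNT mouse, and 7 of the 11 RGLS4326 mice lay below the lowest PBS mouse. The log2 fold change was 1.38 ± 0.15 in the disease contrast (2.60-fold, adjusted p = 1.12e-10) and −0.62 ± 0.15 in the treatment contrast (adjusted p = 0.00466). RGLS4326-treated kidneys were still above UNT kidneys, with a log2 fold change of 0.76 (adjusted p = 1.43e-05), and 9 of 11 mice exceeded the highest UNT mouse.

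The beta subunit gene *Scnn1b* and the gamma subunit gene *Scnn1g* are neighbours on chromosome 7, at chr7:121865038-121918514 and chr7:121734479-121768475, with 96.6 kb between them. *Scnn1b* ranged from 66.2 to 94.5 CPM in UNT mice (median 87.5), from 129 to 230 in PBS mice (median 197) and from 85.1 to 194 in RGLS4326 mice (median 115). As for the alpha subunit, the UNT and PBS mice did not overlap, and the RGLS4326 mice spread over both ranges. Its log2 fold change was 1.10 ± 0.12 in the disease contrast (adjusted p = 3.73e-10) and −0.46 ± 0.13 in the treatment contrast (adjusted p = 0.00802), where 7 of 11 RGLS4326 mice were below the lowest PBS mouse and 3 were above the PBS mean.

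*Scnn1g* was between 61.8 and 82.4 CPM in UNT mice (median 70.1), between 98.7 and 162 in PBS mice (median 127) and between 67.1 and 155 in RGLS4326 mice (median 98.8). It had the smallest disease change of the 3 subunits, 0.86 ± 0.12 (adjusted p = 2.23e-08), again with no overlap. In the treatment contrast it was at −0.28 ± 0.12 (95% interval −0.51 to −0.05) with an adjusted p of 0.0600, which did not pass. Alternatives fell on both sides of the threshold, with adjusted p = 0.0474 in DESeq2 and 0.0499 with the numbering set as a covariate. It stood at only −0.09 in numbering set 1 alone (adjusted p = 0.762) and −0.08 with the fraction of reads outside genes as a covariate (adjusted p = 0.687).

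For the channel subunits and *Hsd11b2* the spread between mice was widest in the RGLS4326 group. The coefficient of variation of *Scnn1a* was 18.5% in UNT, 25.2% in PBS and 30.9% in RGLS4326 mice, and that of *Hsd11b2* 10.4%, 20.2% and 37.2%. That of *Scnn1b* was 9.44% in UNT, 18.1% in PBS and 31.5% in RGLS4326 mice, and that of *Scnn1g* was 7.96%, 16.2% and 30.5%. RGLS4326 mice 4, 8 and 10 held the 3 highest *Scnn1b* levels of their group, at 192, 194 and 187 CPM, which is within the PBS range. RGLS4326 mouse 5, at 85.1 CPM, had the lowest, which is within the UNT range. Reads outside genes were 4.94%, 7.52% and 6.14% in mice 4, 8 and 10 and 11.3% in mouse 5, and reads with no unique alignment were 15.2%, 15.2%, 14.8% and 18.5%. The part of these shares in the spread was not tested.

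*Hsd11b2* encodes the enzyme that protects the mineralocorticoid receptor from glucocorticoids (chr8:105518755-105523988, plus strand). UNT mice lay between 182 and 265 CPM (median 227), PBS mice between 452 and 828 (median 576) and RGLS4326 mice between 216 and 664 (median 433). All PBS mice were above all UNT mice, while the RGLS4326 mice reached from the UNT range far into the PBS range. It rose by 1.42 ± 0.15 in the disease contrast (2.68-fold, adjusted p = 8.63e-11), which was within the error of the rise of *Scnn1a*, and by 1.35 without PBS mouse 9 (adjusted p = 3.8e-10). The treatment contrast was −0.52 ± 0.15 (adjusted p = 0.0110), and −0.475 without PBS mouse 9 (adjusted p = 0.0237). In the RGLS4326 vs UNT contrast it stood at 0.90 ± 0.15 (adjusted p = 1.36e-06), and 8 of 11 mice exceeded the highest UNT mouse.

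The mineralocorticoid receptor gene *Nr3c2* (chr8:76899442-77245012, plus strand) was the lowest of the 9 in CPM. It ranged from 11.7 to 25.6 CPM in UNT mice (median 16.9), from 9.51 to 21.6 in PBS mice (median 18.2) and from 14.1 to 23.5 in RGLS4326 mice (median 18.1). The 3 groups overlapped over nearly their whole ranges. The disease contrast was −0.01 ± 0.11 (95% interval −0.24 to 0.21, adjusted p = 0.921) and the treatment contrast 0.14 ± 0.12 (−0.09 to 0.37, adjusted p = 0.352), so a change of about the size seen for the channel subunits in the disease contrast lies outside the first interval. PBS mouse 9 was the lowest PBS mouse, and without it the disease contrast was 0.02 (adjusted p = 0.871). Its exons share 247 bases with *Gm10649* on the opposite strand, and the strand setting of the counting was not stated, so some of its reads may belong to that gene.

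The glucocorticoid receptor gene *Nr3c1* is expressed by most cell types of the kidney and lies on chromosome 18. It ranged from 110 to 153 CPM in UNT mice (median 123), from 50.7 to 114 in PBS mice (median 89.1) and from 101 to 139 in RGLS4326 mice (median 116). PBS mice were the low group, with 9 of 11 below the lowest UNT mouse, and all 11 RGLS4326 mice were above the PBS mean. It fell by 0.50 ± 0.09 on the log2 scale in the disease contrast (adjusted p = 5.95e-06) and rose by 0.41 ± 0.09 in the treatment contrast (adjusted p = 0.00338). The RGLS4326 vs UNT difference was −0.09 ± 0.09 (95% interval −0.27 to 0.08, adjusted p = 0.349). PBS mouse 9 had the lowest level, and without it the disease contrast was −0.47 (adjusted p = 1.1e-06) and the treatment contrast 0.36 (adjusted p = 0.00419).

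*Sgk1* encodes the serum- and glucocorticoid-regulated kinase that acts downstream of the mineralocorticoid receptor (chr10:21882184-21999903, plus strand). It spread widely among UNT mice, from 227 to 925 CPM (median 684), and lay between 126 and 288 in PBS mice (median 153) and between 119 and 333 in RGLS4326 mice (median 251). UNT mouse 4 was the lowest UNT mouse and the only one within the PBS range, and 8 of 11 PBS mice were below it. The disease contrast of −1.73 ± 0.20 (3.31-fold lower, adjusted p = 1.02e-09) was the largest change in size among the 9 genes and ran opposite to that of the channel subunits. The treatment contrast was 0.37 ± 0.20 (95% interval −0.02 to 0.76, adjusted p = 0.145) and did not pass, and RGLS4326-treated kidneys were at −1.36 ± 0.20 against UNT kidneys (adjusted p = 1.48e-07).

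*Nedd4l* encodes Nedd4-2, the ubiquitin ligase that marks ENaC for removal from the membrane, and was the gene with the miR-17 seed matches described above. It ranged from 137 to 223 CPM in UNT mice (median 180), from 136 to 180 in PBS mice (median 160) and from 125 to 180 in RGLS4326 mice (median 158). The PBS and RGLS4326 mice lay in the lower part of the UNT range or just below it. The disease contrast was −0.17 ± 0.08 (95% interval −0.32 to −0.01) with an adjusted p of 0.0502, just outside the threshold, and without PBS mouse 9 it was −0.19 (adjusted p = 0.0281). Other alternatives fell on both sides, with −0.199 in DESeq2 (adjusted p = 0.0164) and −0.122 with the replicate block (adjusted p = 0.147). The value was −0.348 in numbering set 1 (adjusted p = 0.0123) and 0.015 in set 2 (adjusted p = 0.932). RGLS4326 vs PBS was −0.01 ± 0.08 (95% interval −0.17 to 0.15, adjusted p = 0.927), and RGLS4326 vs UNT passed at −0.18 ± 0.08 (adjusted p = 0.0398). Its exons share 277 bases with *A330084C13Rik* on the opposite strand, which limits these values in the same way as for *Nr3c2*.

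*Tsc22d3* encodes GILZ, a leucine zipper protein induced by corticosteroids through either receptor (chrX:140539528-140600659, minus strand). The UNT mice ranged from 102 to 492 CPM (median 256), the PBS mice from 161 to 325 (median 256) and the RGLS4326 mice from 117 to 334 (median 222). All PBS and RGLS4326 mice lay within the UNT range. The disease contrast was −0.14 ± 0.21 (95% interval −0.54 to 0.26, adjusted p = 0.537), the treatment contrast −0.16 ± 0.21 (−0.57 to 0.25, adjusted p = 0.550) and the RGLS4326 vs UNT contrast −0.30 ± 0.21 (−0.71 to 0.10, adjusted p = 0.178). These intervals are the widest of the 9 genes, together with those of *Sgk1*.

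**Figure D2:**
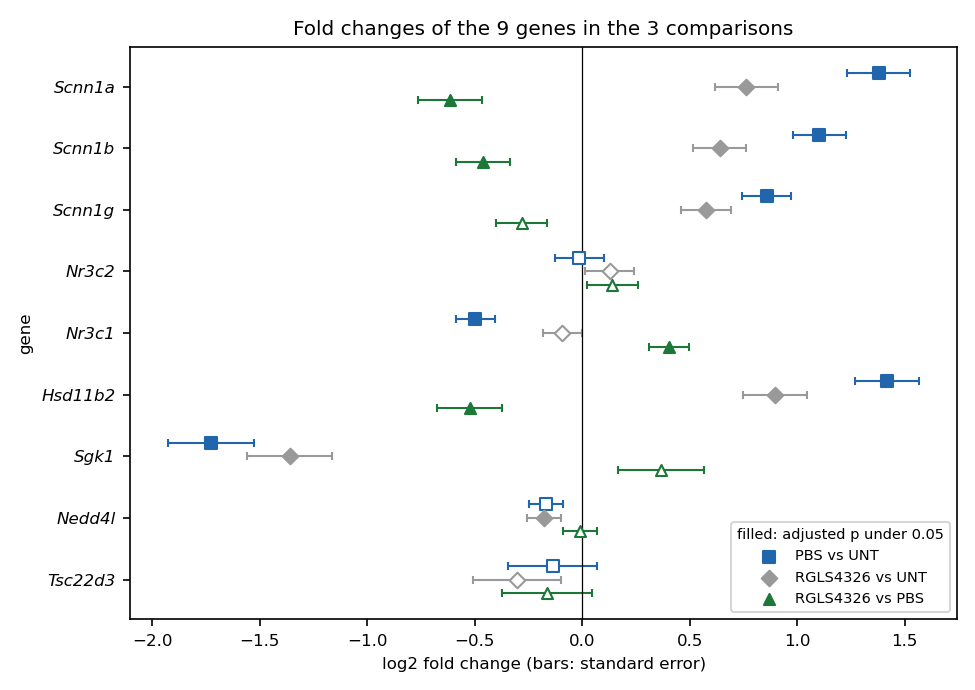
Log2 fold change (x axis) of each gene (y axis) with its standard error (bars) for PBS vs UNT (squares), RGLS4326 vs PBS (triangles) and RGLS4326 vs UNT (diamonds), filled where adjusted p is under 0.05. The squares of the 3 subunits and of *Hsd11b2* lie between 0.86 and 1.42 with their triangles below 0, and the *Sgk1* square lies at −1.73.

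The treatment contrast was repeated within each numbering set. *Scnn1a* was at −0.66 (adjusted p = 0.115), −0.86 (0.0214) and −0.49 (0.281) in sets 1, 2 and 3, and *Hsd11b2* at −0.31 (0.369), −0.81 (0.0180) and −0.60 (0.263). *Scnn1b* was at −0.42 (adjusted p = 0.175), −0.54 (0.0852) and −0.47 (0.269), and *Nr3c1* at 0.28 (0.178), 0.47 (0.0216) and 0.52 (0.262). Each of these genes kept its direction in all 3 sets, and set 2 was the only set in which members were called by edgeR, 3 of 9 against 25.5% of all genes. In set 2 the fraction of reads outside genes was 11.3% to 12.0% in RGLS4326 and 5.49% to 9.0% in PBS libraries, without overlap, whereas the groups overlapped in it in set 1 (4.94% to 8.38% and 5.18% to 7.24%) and set 3 (6.14% to 11.7% and 5.67% to 6.65%). In sets 1 and 3 none of the 9 was called, against 0.343% and 0% of all genes, and 3 of the 9 had an unadjusted p under 0.05 in each of these sets, as did 3421 of 15737 genes in set 1 and 2826 of 15676 in set 3. When the fraction of reads outside genes was added to the fit, none of the 9 was called either, against 0.569% of all genes, and 3 of the 9 had an unadjusted p under 0.05, as did 3199 of all 15644 genes. *Scnn1a* then stood at −0.38 (adjusted p = 0.144), *Scnn1b* at −0.25 (0.236), *Hsd11b2* at −0.25 (0.285) and *Nr3c1* at 0.29 (0.113).

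The disease contrast called the same direction for *Scnn1a*, *Scnn1b*, *Scnn1g*, *Hsd11b2*, *Sgk1* and *Nr3c1* within each numbering set, where 72.5%, 71.4% and 64.8% of all genes were called. *Scnn1a* was between 1.29 and 1.48 over the 3 sets, *Hsd11b2* between 1.15 and 1.73 and *Sgk1* between −1.93 and −1.38. With the fraction of reads outside genes as a covariate, in which UNT and PBS libraries did not overlap, these fold changes were smaller in size. *Scnn1a* then stood at 0.84 (adjusted p = 0.000116), *Scnn1b* at 0.63 (0.000354), *Scnn1g* at 0.41 (0.00936), *Hsd11b2* at 0.79 (0.000103), *Nr3c1* at −0.27 (0.0478) and *Sgk1* at −1.52 (4.03e-05). All 6 were still called, with *Nedd4l* added at −0.26 (adjusted p = 0.0416), while 70.2% of all genes were called. In the same fit the RGLS4326 vs UNT contrast had *Scnn1a* at 0.46 (adjusted p = 0.00345), *Scnn1b* at 0.39 (0.00273), *Scnn1g* at 0.33 (0.00574) and *Hsd11b2* at 0.54 (0.000309), with 6 of 9 members and 76.6% of all genes called.

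The number of members called in the RGLS4326 vs UNT contrast differed between sets. In set 2, where 3 RGLS4326 mice were compared with 4 UNT mice, *Sgk1* at −1.25 (adjusted p = 0.00546) was the only member called, although 64.2% of all genes were. *Scnn1a* stood there at 0.47 (adjusted p = 0.0863), *Hsd11b2* at 0.34 (0.164) and *Scnn1g* at 0.20 (0.384). In sets 1 and 3, *Scnn1a* was at 0.82 (adjusted p = 0.00284) and 0.80 (0.00952), and *Hsd11b2* at 0.96 (0.000402) and 1.13 (0.00130), with 5 of 9 members called in each, against 70.8% and 55.8% of all genes. The difference between sets was not tested.

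Levels were compared between genes per kilobase of exon, since longer transcripts collect more reads. The exons of all annotated transcripts of a gene were joined for this length, which was 17.659 kb for *Nedd4l* and 7.684 kb for *Nr3c1*. The transcripts expressed may be shorter. In UNT kidneys, *Sgk1* at 124 ± 45.0 CPM per kb and *Hsd11b2* at 122 ± 12.7 were highest and did not differ beyond their spread, and *Tsc22d3* at 63.3 ± 27.3 and *Scnn1a* at 50.8 ± 9.42, which also lay within their spread of each other, followed. *Scnn1b* stood at 32.3 ± 3.05, *Scnn1g* at 23.8 ± 1.89, *Nr3c1* at 16.4 ± 1.97 and *Nedd4l* at 10.1 ± 1.79, and *Nr3c2* was lowest at 2.66 ± 0.54. In PBS kidneys, *Hsd11b2* at 328 ± 66.0 and *Scnn1a* at 132 ± 33.4 were the highest, and *Sgk1* at 37.5 ± 11.8 lay below *Scnn1b* at 69.3 ± 12.5. RGLS4326 kidneys had *Hsd11b2* at 228 ± 84.8, *Scnn1a* at 86.2 ± 26.7 and *Scnn1b* at 50.3 ± 15.8, next to *Tsc22d3* at 51.3 ± 16.6 and *Sgk1* at 48.3 ± 13.4, and these last 3 did not differ beyond their spread.

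A further 53 genes of the pathway were listed by role, and all 53 were tested. In the disease contrast 18 of them rose and 25 fell (median log2 fold change −0.12, against 0.04 for all genes), so that 81.1% were called, against 82.1% of all genes. In the treatment contrast 7 rose, 7 fell and 39 did not pass (median 0.05, against 0.00 for all genes), which is 26.4% called, against 33.8% of all genes. The counts in each role below stand beside these shares. Of 9 genes induced by corticosteroids, 6 fell and 2 rose in the disease contrast. *Usp2*, which encodes a ubiquitin-specific protease, fell by 1.63 ± 0.13 on the log2 scale (adjusted p = 3.27e-14), and *Per1*, *Klf9*, *Errfi1*, *Dusp1* and *Zbtb16* also fell, by 0.58 to 1.11. *Cnksr3*, a scaffold protein for ENaC regulation, rose by 1.07 ± 0.07 (adjusted p = 8.74e-16), and *Ddit4* rose by 0.91. The list therefore did not move in a single direction, and *Fkbp5*, with −0.32 ± 0.29 (adjusted p = 0.315), was not called. Only the transcription factor gene *Klf9* was called in the treatment contrast, higher by 0.45 ± 0.15 (adjusted p = 0.0239).

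Of 11 genes for steroid supply and for receptor chaperones and coregulators, 3 rose and 2 fell in the disease contrast. By adjusted p, the rises were led by *H6pd* at 1.16 ± 0.09 (adjusted p = 5.49e-14), which encodes the enzyme that supplies NADPH to 11-beta-hydroxysteroid dehydrogenase type 1, and by *Mllt3* at 0.54 ± 0.06 (adjusted p = 1.29e-10), and the chaperone gene *Hsp90ab1* rose by 0.64 ± 0.08 (adjusted p = 8.2e-09). *Hsd11b1*, the dehydrogenase gene that *H6pd* serves, was at 78.2 CPM in both UNT and PBS kidneys (adjusted p = 0.994). The coactivator gene *Ncoa1* was the only one called with treatment, at 0.21 ± 0.08 (adjusted p = 0.0429).

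Among the 8 kinase genes 5 fell and 1 rose in the disease contrast. *Sgk2*, a relative of *Sgk1*, fell by 2.38 ± 0.16 (adjusted p = 1.47e-15) from 181 CPM in UNT to 34.8 in PBS kidneys, and *Sgk3* fell by 0.62, so all 3 genes of this kinase family were lower. *Akt1* rose by 1.19 ± 0.07 (adjusted p = 4.12e-18), and *Wnk1* fell by 1.34. Under treatment, *Wnk1* rose by 0.35 ± 0.10 (adjusted p = 0.00832), *Sgk3* and *Rictor* rose as well, and *Akt1* fell by 0.29 ± 0.07 (adjusted p = 0.00418). The ubiquitin ligases and adaptors were divided, with 4 of 9 higher and 4 lower. *Nedd4*, the relative of *Nedd4l*, rose by 0.76 ± 0.07 (adjusted p = 4.76e-12), and *Ndfip2*, an adaptor of these ligases, fell by 0.65 ± 0.07 (adjusted p = 4.32e-11). With RGLS4326, *Ndfip2* rose by 0.19 ± 0.07 (adjusted p = 0.0288) and the 14-3-3 gene *Ywhae* fell by 0.16 ± 0.06 (adjusted p = 0.0282).

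ENaC is activated when proteases cleave its alpha and gamma subunits. Of 8 genes for such proteases and their inhibitors 6 rose and 1 fell in the disease contrast, and 4 fell and 0 rose in the treatment contrast. *St14*, the membrane protease matriptase, rose by 1.37 ± 0.11 (adjusted p = 4.11e-14) and fell by 0.49 ± 0.11 with treatment (adjusted p = 0.00300), and *Tmprss2* fell by 0.38 ± 0.07 with treatment (adjusted p = 0.00122). The inhibitor genes *Spint1* and *Spint2* rose by 1.01 and 0.92 and fell by 0.39 and 0.43, in the same directions as the protease *St14*. *Serpine2*, another inhibitor, had the largest rise of the list at 2.01 ± 0.09 (adjusted p = 6.83e-21) and stood at 0.03 in the treatment contrast (adjusted p = 0.822). *Prss8*, which encodes prostasin, an activator of ENaC, fell by 1.01 in the disease contrast and was at −0.05 in the treatment contrast (adjusted p = 0.681).

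Transport partners of ENaC were mostly lower. In the disease contrast 7 of 9 fell and 2 rose, and the kinase gene *Wnk4* fell by 1.85 ± 0.06 (adjusted p = 1.89e-24). *Slc12a3*, the thiazide-sensitive sodium chloride cotransporter upstream of the channel, fell by 2.70 ± 0.13 (adjusted p = 1.03e-19). *Atp1b1*, a subunit of the sodium pump, fell by 1.13, and *Kcnj1*, the potassium channel ROMK, fell by 0.59. *Fxyd4*, a pump regulator of the collecting duct, rose by 1.55. *Slc12a3*, by contrast, rose by 0.62 ± 0.13 (adjusted p = 0.00193) and *Fxyd4* fell by 0.59 ± 0.16 (adjusted p = 0.00855) in the treatment contrast, and the other 7 did not pass.

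Against UNT, RGLS4326-treated kidneys had 17 of the 53 genes higher, 22 lower and 14 not called (median −0.10, against 0.02 for all genes), so that 73.6% were called, against 77.7% of all genes. Higher genes included *Serpine2* at 2.04 ± 0.09 (adjusted p = 7.33e-21), *Cnksr3* at 1.12 ± 0.07 (3.22e-16), *H6pd* at 1.06 ± 0.09 (7.44e-13), *Nedd4* at 0.92 ± 0.07 (4.39e-14), *Akt1* at 0.91 ± 0.07 (1.06e-14) and *Mllt3* at 0.55 ± 0.06 (1.22e-10). Lower genes included *Slc12a3* at −2.08 ± 0.13 (adjusted p = 1.02e-16), *Sgk2* at −2.04 ± 0.16 (9.61e-14), *Wnk4* at −1.81 ± 0.06 (4.14e-24), *Usp2* at −1.54 ± 0.13 (1.88e-13), *Prss8* at −1.06 ± 0.09 (7.40e-13) and *Ndfip1* at −0.42 ± 0.05 (5.76e-09). In PBS kidneys, *Serpine2* and *Cnksr3* had stood at 2.01 and 1.07 against UNT.

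Markers of the cell types that carry these genes moved in the same contrasts. The counts of called markers in this and the next paragraphs stand beside the shares of all genes. These were 43.1% higher and 39% lower in the disease contrast, and 15.3% higher and 18.5% lower in the treatment contrast. Of 8 principal cell markers 7 rose and 1 fell in the disease contrast (median 1.45), and 6 fell and 0 rose in the treatment contrast (median −0.48). Their summed level was 441 to 777 CPM in UNT mice, 621 to 2079 in PBS mice and 381 to 1769 in RGLS4326 mice. *Kcne1* was the marker that fell, by 0.24. *Gata3*, a transcription factor of the collecting duct, rose by 1.39 in the disease contrast and fell by 0.46 in the treatment contrast. *Aqp2*, the vasopressin-regulated water channel, rose by 1.27 (adjusted p = 0.000167) and fell by 0.78 with treatment (adjusted p = 0.0413). The channel subunits and *Hsd11b2* rose beside these markers in the disease contrast. *Scnn1a*, *Scnn1b* and *Hsd11b2* were lower beside them in the treatment contrast, where *Scnn1g* did not pass. The part of the markers in these results was not tested.

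Markers of the connecting tubule, a segment that also expresses the channel, were mostly lower. In the disease contrast 4 of 5 fell and 1 rose (median −2.11), and the summed level was 3279 to 4882 CPM in UNT mice against 754 to 1139 in PBS mice and 808 to 1319 in RGLS4326 mice. *Calb1*, a calcium-binding protein of this segment, fell by 2.41, and *Trpv5* rose by 0.66. Distal convoluted tubule markers fell in 4 of 4 cases, with sums of 1299 to 2179 CPM in UNT, 232 to 449 in PBS and 381 to 595 in RGLS4326 mice. *Pvalb*, which defines the early part of that segment, averaged 23.7 CPM in UNT kidneys, against 0.105 CPM in those given PBS. *Slc12a3* of this list and *Fxyd4* of the principal cell list also stand among the transport partners. *Sgk1* fell beside these lists, and their part in that result was not tested.

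Other cell types also differed between the groups. The sums of 5 proximal tubule markers were 7951 to 10991 CPM in UNT, 714 to 2496 in PBS and 1487 to 2810 in RGLS4326 mice, and all 5 fell in the disease contrast. Thick ascending limb markers (3 of 4 lower, 1 higher) summed to 5916 to 9553, 2263 to 4393 and 3400 to 5011 CPM, and intercalated cell markers (4 of 6 lower, 1 higher) to 372 to 433, 201 to 309 and 159 to 278 CPM. Fibroblast markers (4 of 4 higher) summed to 340 to 982, 2118 to 4516 and 2876 to 4284 CPM, and 4 tested macrophage markers, all higher, to 70.8 to 128, 353 to 901 and 309 to 645 CPM. All 3 tested T cell markers rose, to sums of at most 11.6 CPM, and endothelial markers (2 of 4 higher, 2 lower) summed to 346 to 438, 278 to 413 and 359 to 453 CPM. No tested marker was at 0 in all mice of a group. In the treatment contrast 3 of 5 proximal tubule, 3 of 4 endothelial, 1 of 5 connecting tubule and 1 of 4 distal convoluted tubule markers were higher, and 3 of 3 T cell, 2 of 4 macrophage and 2 of 6 intercalated cell markers were lower. Of the 4 thick ascending limb markers 2 were higher and 1 lower, and 0 of 4 fibroblast markers were called. Of all genes 15.3% were higher and 18.5% lower in this contrast, so several of these counts are near those shares. With the fraction of reads outside genes in the fit 0.569% of all genes were called, and the markers were not examined in that fit. *Nr3c1*, which many of these cells express, moved beside these lists, and their part in its change was not tested.

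**Figure D3:**
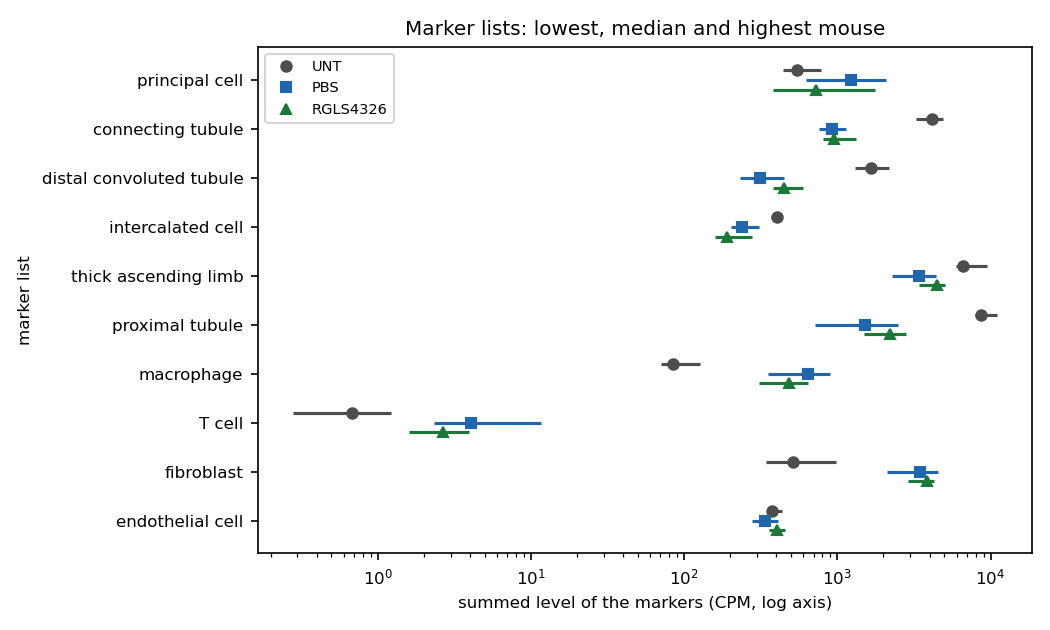
Summed level of the markers of each list in CPM (x axis, log scale) for UNT, PBS and RGLS4326 mice, with the median mouse as a symbol and a line from the lowest to the highest mouse. Principal cell markers are the only tubule list with the PBS median (1223 CPM) above the UNT median (544 CPM).

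Within the groups, 18 relations between the levels of members were computed, 6 pairs in each of 3 groups, with log2(CPM + 1) and permutation tests with 100000 resamples, adjusted over the 18 by Benjamini-Hochberg. *Scnn1b* and *Scnn1g* had the highest r of the 6 pairs in RGLS4326 and in PBS mice, but not in UNT mice. Across the 11 RGLS4326 mice Pearson's r was 0.985 (permutation p = 1e-05, the smallest these permutations can give, adjusted p = 0.00018) and Spearman's rho 0.973 (permutation p = 1e-05), and r was 0.972 without the 2 mice farthest from the median. In the 11 PBS mice r was 0.811 (permutation p = 0.00299, adjusted p = 0.00769) with a rho of 0.864 (p = 0.00123 by permutation), and 0.708 without 2 mice (permutation p = 0.0358, adjusted p = 0.0920). In the 12 UNT mice r was 0.261 (permutation p = 0.412, adjusted p = 0.496) with a rho of 0.021 (permutation p = 0.956). Centred on the numbering sets, r was 0.988, 0.801 and −0.104 in these 3 groups.

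*Scnn1a* followed *Scnn1b* in RGLS4326 mice, with an r of 0.936 (permutation p = 4e-05, adjusted p = 0.00024), a rho of 0.945 (permutation p = 6e-05), an r of 0.922 without 2 mice and of 0.963 centred on the sets. In PBS mice r was 0.683 (permutation p = 0.0214, adjusted p = 0.0481) with a rho of 0.618 (permutation p = 0.0472, adjusted p = 0.0877). This r was 0.671 with RLE size factors (adjusted p = 0.0577 by permutation) and 0.673 without 2 mice (adjusted p = 0.106 by permutation), so the call held in none of these alternatives. In UNT mice r was 0.143 (adjusted p = 0.704 by permutation). *Hsd11b2* followed *Scnn1b* in RGLS4326 mice with an r of 0.909 (permutation p = 0.0003, adjusted p = 0.00115), a rho of 0.955 (permutation p = 5e-05), and 0.854 without 2 mice. In PBS mice that relation had an r of 0.627 (adjusted p = 0.0818 by permutation), and in UNT mice of 0.514 (adjusted p = 0.147 by permutation). For this pair r in PBS mice was 0.408 without 2 mice and 0.394 centred on the sets. In UNT mice its rho was 0.0559, and its r was −0.477 without 2 mice. The receptor gene *Nr3c2* also followed *Scnn1b* in RGLS4326 mice, with an r of 0.849 (permutation p = 0.00165, adjusted p = 0.00495), a rho of 0.836 (permutation p = 0.00228) and 0.882 without 2 mice. In PBS and UNT mice r was 0.136 and 0.164 for this pair, with adjusted permutation p-values of 0.704 and 0.653. Without 2 mice r was 0.14 and 0.22 there. PBS mouse 9 had the lowest *Nr3c2* level of its group, and r without that mouse alone was not computed. Whether r differed between groups was not tested.

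*Sgk1* and *Tsc22d3*, both induced by corticosteroids, moved together in UNT mice. There r was 0.913 (permutation p = 2e-05, adjusted p = 0.00018), rho 0.839 (permutation p = 0.00128), r 0.819 without 2 mice and 0.906 centred on the sets. In RGLS4326 mice r was 0.893 (permutation p = 0.00032, adjusted p = 0.00115) with a rho of 0.855 (permutation p = 0.00158), and 0.744 without 2 mice (adjusted p = 0.0673 by permutation). In PBS mice r was 0.545 (adjusted p = 0.147 by permutation) with a rho of 0.636 (permutation p = 0.0405). The 3 relations of *Nr3c1* with *Tsc22d3*, with r between −0.413 and −0.274, were not past the threshold. The relations of *Scnn1b* with *Scnn1g* and with *Scnn1a* in PBS mice, and of *Sgk1* with *Tsc22d3* in RGLS4326 mice, were no longer past the threshold without the 2 mice, although r was still 0.708, 0.673 and 0.744. All points of a relation are levels from the same library, and the depth and the cell make-up of that kidney are shared by both genes.

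**Figure D4:**
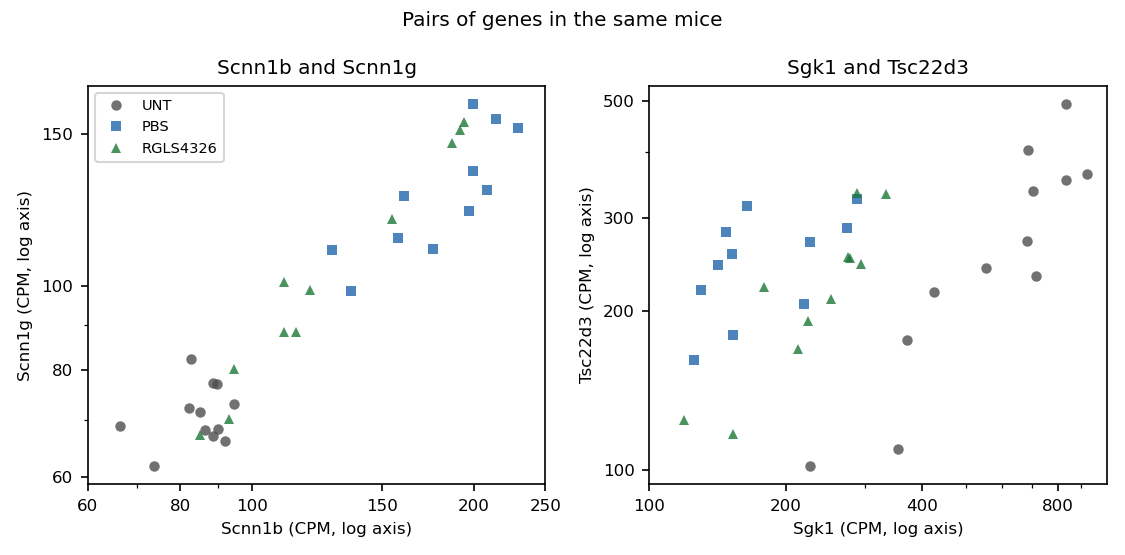
Level of *Scnn1g* against *Scnn1b* (left) and of *Tsc22d3* against *Sgk1* (right) in CPM on log axes, 1 point per mouse (UNT circles, PBS squares, RGLS4326 triangles). In the left panel the RGLS4326 mice lie along 1 line from the UNT to the PBS points (r = 0.985), and in the right panel the PBS and RGLS4326 points lie to the left of nearly all UNT points at like levels of *Tsc22d3*.

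For each gene, the tested genes most like it were found by Pearson's r of log2(CPM + 1) centred on the group means over the 34 mice, as a description with no test. The groups were pooled although they differed in spread, so a group with a wide spread weighs more. For *Scnn1b* with *Scnn1g*, r within the groups was 0.261 in UNT, 0.811 in PBS and 0.985 in RGLS4326 mice. *Scnn1b* was most like *Epb4.1l4b* (r = 0.899), *Scnn1g* (0.893), *Gata2* (0.877), *Slc44a3* (0.877) and *Qpctl* (0.862). The closest to *Scnn1g* were *Scnn1b*, *Smim6* (0.879), *Hsd11b2* (0.851), *Efhd1* (0.839) and *Adora1* (0.816). *Hsd11b2* had as its nearest genes *Rhcg* (0.908), *Avpr2* (0.897), *Fxyd4* (0.888), *AU021092* (0.877) and *Smim6* (0.871). *Avpr2*, the vasopressin V2 receptor, and *Fxyd4* were among the principal cell markers examined here, and *Rhcg* is an ammonia transporter of the collecting duct. *Scnn1a* had other neighbours, namely *Anxa11* (0.890), *Hk1* (0.890), *Kcnq1* (0.876), *Wscd2* (0.864) and *Krt80* (0.850), and *Scnn1b* came at rank 95 (0.744).

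The regulators had different neighbours again. *Sgk1* was most like *Plk3* (0.858), *Tsc22d3* (0.839), *Gadd45g* (0.836), *Errfi1* (0.811) and *Per2* (0.803), and its r with *Scnn1b* was −0.280. Among the genes closest to *Tsc22d3* were *Nfil3* (0.840), *Sgk1* (0.839), *Dusp1* (0.807) and *Ccrn4l* (0.801). *Nr3c1* was most like *Phldb2* (0.920), *Ncoa7* (0.914), *Sec23a* (0.892), *Zbtb33* (0.885) and *Cep68* (0.883), *Nr3c2* most like *Sorl1* (0.866), *Tanc1* (0.856), *Nos1ap* (0.852), *Slc26a2* (0.840) and *Ptprm* (0.830), and *Nedd4l* most like *Frmd4b* (0.892), *Epb4.1* (0.848), *Zbtb16* (0.806), *Stim1* (0.801) and *Rad51ap2* (0.797). These values rest on the same libraries, so depth and tissue composition are shared by all the genes compared.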

How the data were processed

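Poly(A) RNA of whole kidneys from 34 mice was sequenced from TruSeq stranded mRNA libraries on a NextSeq instrument as paired ends. The authors trimmed reads with Trim Galore, mapped them with STAR to GRCm38 (mm10) and deposited raw read counts per gene from HTSeq (version 0.6.1, per the submitters' processing notes), with no normalization. FastQC (version 0.11.2), SAMtools (version 1.1) and Picard (version 1.119) are also named there. The gene annotation and the strand setting of the counting are not given in the sources used here, so genes that share exon bases with another gene are named as uncertain. Counting only unique alignments drops reads from near-identical gene copies, and the counter's rows for reads in no gene (4.94% to 12.0% of all reads the counter listed), ambiguous reads and reads with no unique alignment (14.8% to 25.7%) were kept out of library sizes.

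Counts were tested with edgeR (version 4.0.16, R version 4.3.3) by the quasi-likelihood test after TMM scaling and filterByExpr, in a fit of all 34 libraries with 3 groups. Alternatives were RLE size factors, DESeq2 (version 1.42.0), no filter, the replicate number or the numbering set as a term, each numbering set alone, the fraction of reads outside genes as a covariate, fits of 2 groups, and, chosen after the data were seen, leaving out PBS mouse 9. The labels number the samples of a group, and p-values measure the spread between these samples. With 314 counts or more for every member, differences between mice rather than counting error set the precision. The procedure was tested on simulated counts in which few genes changed. A contrast with most genes called, such as PBS vs UNT, was not simulated. The members and the gene lists were chosen with earlier results of these data known, so no list is independent evidence. All members are named, together with, in each role and contrast, the 2 called genes with the smallest adjusted p, and, for each member, the 5 most similar genes, except for items that are not reported here. Other genes of the lists are named as examples chosen after their values were seen. Coordinates are from GENCODE M21 and RefSeq on GRCm38. Python 3.11.15 with numpy 2.4.6, pandas 2.3.3, scipy 1.17.1 and matplotlib 3.10.9 was used for correlations and figures.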

Additional observations from a re-analysis of the deposited data

How the results depend on the processing

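Of the 288 values of a member's log2 fold change under an alternative, 246 kept both direction and side of the threshold, 21 lost and 9 gained a call, and 12 changed sign, none of which was called in the main analysis or the alternative. In the disease contrast these were *Nr3c2* with the replicate block (0.032), in numbering set 1 (0.11) and without PBS mouse 9 (0.019), and *Nedd4l* (0.015) and *Tsc22d3* (0.26) in set 2. In the treatment contrast they were *Nedd4l* without a filter (0.001), in set 1 (0.21) and with the fraction of reads outside genes as a covariate (0.033), and *Tsc22d3* in set 1 (0.042). RGLS4326 vs UNT had *Nr3c2* (−0.021) and *Nr3c1* (0.093) in set 2 and *Nr3c1* (0.017) with the covariate. Calls in the disease contrast numbered 6 or 7 throughout, 7 where *Nedd4l* was added. The 4 calls of the treatment contrast became 0 in set 1, in set 3 and with the covariate, and the 6 of RGLS4326 vs UNT became 1 in set 2, where 10235 of 15944 genes were still called. The cause was not tested. Over all genes the 5280 treatment calls became 54 in set 1, 4065 in set 2, 89 with the covariate and 0 in set 3 by edgeR, where 2826 had an unadjusted p under 0.05. Called relations between members numbered 8, 7 with RLE size factors or Spearman's rho, which lost *Scnn1a* with *Scnn1b* in PBS mice, and 5 without 2 mice. There r changed sign for *Scnn1b* with *Scnn1g* (−0.347) and with *Hsd11b2* (−0.477) in UNT mice and for *Nr3c1* with *Tsc22d3* (0.181) in RGLS4326 mice. The deviations of same-numbered mice of different groups had a median r of −0.018 (33 pairs, r from −0.415 to 0.454, 10 over 0.1). Differently numbered mice were not compared, so this cannot settle whether the numbers pair mice. With the replicate block, members called were 6, 5 and 5 in the 3 contrasts, as *Scnn1g* was called in the treatment contrast (−0.31, adjusted p = 0.0188) and *Nedd4l* was not in RGLS4326 vs UNT (−0.14, adjusted p = 0.0988). Without PBS mouse 9 the counts were 7 and 4. Each mouse in turn was not left out, since groups held over 5 mice.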

Other observations

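The ratios between the 3 channel subunits differed between mice. On the log2 scale and per length of exon, *Scnn1a* exceeded *Scnn1g* by 1.06 ± 0.30 (SD, n = 12) in UNT mice, 1.59 ± 0.38 (n = 11) in PBS mice and 1.27 ± 0.14 (n = 11) in RGLS4326 mice. The excess of *Scnn1a* over *Scnn1b* was 0.63 ± 0.29, 0.91 ± 0.26 and 0.77 ± 0.16, and that of *Scnn1b* over *Scnn1g* 0.44 ± 0.16, 0.68 ± 0.16 and 0.50 ± 0.08. The ranges of the groups overlapped for each of the 3 ratios, and no test of them was made. In every mouse *Scnn1a* was above *Scnn1b* and *Scnn1b* above *Scnn1g* by this measure.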
